A study of Rattus norvegicus with 6 samples.

Results

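Genes that are switched on when cells divide were followed in visceral fat of 6 Wistar rats, an outbred laboratory strain. The list held 32 genes, chosen by name and split by phase: 10 genes of DNA replication in S phase and 22 genes of mitosis. A gene was measured where a probe set of the array was annotated to it alone, which held for 30 genes and 41 probe sets of the 31099 in the table. These were 9 S phase genes on 11 probe sets and 21 mitosis genes on 30 probe sets. Rrm2, a ribonucleotide reductase subunit, shared its probe sets with another gene, and Tpx2, an activator of Aurora A kinase, had none, so neither was measured here. The lean group was 3 rats fed standard chow (lean 14, 18 and 19). The obese group was 3 rats kept for 30 days on a cafeteria diet, which is rich in calories (obese 29, 32 and 42). The tissue was the fat around the pancreas, taken whole, with 1 Affymetrix expression array for each rat. The comparison asks whether the fat of obese rats carries more or less transcript of dividing cells.

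A dividing cell copies its DNA in S phase and separates the copies in mitosis. The MCM proteins form the helicase that unwinds DNA, PCNA is the sliding clamp of the polymerases, and thymidylate synthase and thymidine kinase supply nucleotides. Cyclin B with the kinase CDK1 then drives entry into mitosis, motor proteins and kinases build the spindle, and the anaphase-promoting complex ends mitosis by marking cyclins and other proteins for destruction. Transcripts of the replication genes are made under E2F factors around the start of S phase. Those of mitosis are made later, under MuvB complexes, of which DREAM is the repressive form. In fat, mature adipocytes seldom divide, and dividing cells are found among progenitors, macrophages, endothelial and other stromal cells.

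The promoters of the measured genes differed between the 2 phases in how often they carried the sequence motifs searched for. RefSeq promoter windows (build GRCr8, 250 bases before to 50 after the annotated start) matched 26 of the 30 genes, 8 of S phase and 18 of mitosis. They were searched on both strands for TTTGAA, the core of the cell cycle genes homology region (CHR) that MuvB complexes bind, for CCAAT, the site of the factor NF-Y, and for the E2F site written as TTTCCCGC or TTTGGCGC. TTTGAA was found in 13 of 18 mitosis windows, 1 of 8 S phase windows and 18.3% of all 33469 windows. CCAAT was found in 15 of 18, 5 of 8 and 37.5%, and both together in 12 of 18, 0 of 8 and 7.41%. A searched E2F form was found in 0 of 18 mitosis windows, 5 of 8 S phase windows (Mcm3, Mcm5, Mcm6, Mcm7 and Tyms) and 1.45% of all. Other forms, such as the TTTCGCGC in the Cdk1 stretch below, were not searched, so the mitosis windows may hold E2F sites. Only in Mki67 did matches of different motifs share bases, a TTTGAA and a CCAAT. These counts describe letters in a window, not bound sites.

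The stretches shown were picked so that TTTGAA or a searched E2F form can be read outside the annotated span of any gene. Of the 26 window starts, 16 lay inside their own gene's span. Each is written 5' to 3' on the gene's strand with motif letters in capitals. Top2a, Cdc20, Cdk1 and Ccnb2 are mitosis genes whose stretches hold TTTGAA or its complement TTCAAA as well as CCAAT or ATTGG. In Ccnb2 these lie apart, with TTTGAA from base -214 and the nearest CCAAT from base -134, counted from the annotated start. They lie on chr10:84473094-84473243, chr5:137255800-137255929, chr20:19265143-19265251 and chr8:79981718-79981908, of which that of Cdk1 is on the plus strand and the others on the minus strand. Mcm5, Mcm6 and Mcm7 are helicase genes whose stretches hold a searched E2F form or its complement, GCGCCAAA or GCGGGAAA. Their coordinates are chr19:13488563-13488812 (plus strand), chr13:42404353-42404502 and chr12:22163321-22163428 (both minus strand). The stretches of Mcm5 and Mcm6 also hold CCAAT or ATTGG. Further matches lie in the windows outside the stretches, among them the CCAAT matches of Mcm7. Ccnb2 and Cdk1 each have another TTTGAA there, from base -43 and base -16.
Top2a: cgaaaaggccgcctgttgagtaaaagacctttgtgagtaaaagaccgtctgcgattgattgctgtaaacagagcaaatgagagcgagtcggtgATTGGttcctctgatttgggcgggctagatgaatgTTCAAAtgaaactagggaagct
Cdc20: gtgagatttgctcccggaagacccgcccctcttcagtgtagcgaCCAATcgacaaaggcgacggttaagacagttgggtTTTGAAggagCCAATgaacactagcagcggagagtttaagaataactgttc
Cdk1: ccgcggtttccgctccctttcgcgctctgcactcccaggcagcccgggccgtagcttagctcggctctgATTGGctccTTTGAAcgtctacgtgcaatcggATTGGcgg
Ccnb2: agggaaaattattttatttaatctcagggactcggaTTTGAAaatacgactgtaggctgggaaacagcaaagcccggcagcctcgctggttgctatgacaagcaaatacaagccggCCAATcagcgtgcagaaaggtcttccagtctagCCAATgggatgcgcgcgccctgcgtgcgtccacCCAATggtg
Mcm5: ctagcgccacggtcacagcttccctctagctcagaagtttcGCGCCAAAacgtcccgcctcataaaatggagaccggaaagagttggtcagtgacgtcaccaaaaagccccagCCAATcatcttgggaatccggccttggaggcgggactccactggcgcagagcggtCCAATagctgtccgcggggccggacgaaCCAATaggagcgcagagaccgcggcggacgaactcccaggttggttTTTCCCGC
Mcm6: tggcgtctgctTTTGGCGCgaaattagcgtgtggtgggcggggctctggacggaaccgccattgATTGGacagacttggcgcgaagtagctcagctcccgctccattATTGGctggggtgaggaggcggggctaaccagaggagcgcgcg
Mcm7: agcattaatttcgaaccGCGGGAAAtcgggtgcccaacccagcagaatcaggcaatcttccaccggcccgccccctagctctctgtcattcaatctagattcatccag

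Each array gave log2 expression values with a median between 5.63 and 5.68. Adipocyte markers such as Adipoq and Plin1 had a mean level of 11.33 to 12.03 across the arrays, which bears out the labelled tissue. Lean 14 stood apart in pancreatic acinar genes, at a mean level of 9.49 against 4.56 to 5.10 on the other arrays. Obese 42 had the largest gap between 3' and 5' probe sets of beta-actin, GAPDH and hexokinase, a measure of RNA degradation, at 1.28 against 0.79 to 1.10 on the others. The labels give the other 5 arrays, but not obese 42, as re-analyses of older samples. Values given below are log2 levels of the brightest probe set of each gene, and levels of different genes cannot be set against each other. In whole tissue, fewer dividing cells and less transcript in each cannot be told apart.

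Mitosis genes had nearly equal means in lean and obese rats and lay far apart among the obese rats. All 21 measured genes were highest on obese 29, against 17.2% of all 14217 genes tested, and 18 of 21 were lowest on obese 42, against 20.3%. The same 18 were both, against 3.97% of all genes. The mean level of the 21 genes was 5.83, 5.57 and 5.55 on lean 14, 18 and 19, and 6.43, 5.61 and 4.995 on obese 29, 32 and 42. Obese 32 lay within the lean range for 13 of the 21 genes, while obese 29 lay above every lean array for 21 and obese 42 below every lean array for 18. Over all 14217 genes these counts were 5131, 4830 and 4233. The group means were 5.65 ± 0.16 (SD, n = 3) in lean and 5.68 ± 0.72 (SD, n = 3) in obese rats.

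**Figure D1:**
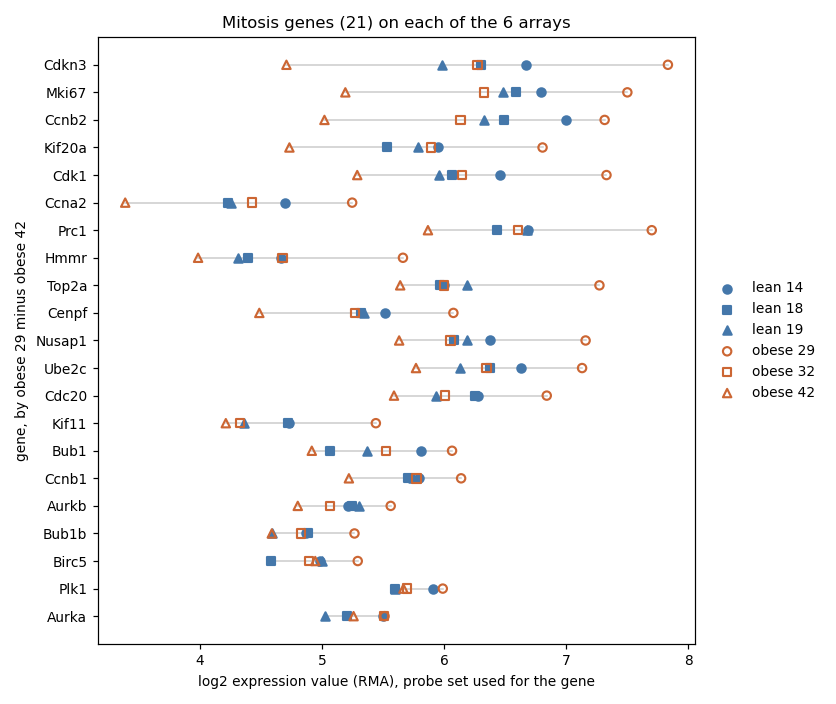
Log2 expression value of each of the 21 mitosis genes (rows) on the 3 lean arrays (filled) and the 3 obese arrays (open), with a grey line from the lowest to the highest array. Obese 29 is at the right end of every row, and obese 42 at the left end of 18, with Aurka, Plk1 and Birc5 the exceptions.

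Among the cyclins and their kinase, the order of the obese arrays was the same for all 5 genes. Cdk1, the kinase that triggers mitosis, lay at 6.46, 6.07 and 5.95 on lean 14, 18 and 19 and at 7.33, 6.15 and 5.29 on obese 29, 32 and 42. Ccnb2, a B-type cyclin that partners it, lay at 6.997, 6.49 and 6.32 on the lean arrays and at 7.31, 6.13 and 5.02 on the obese. For both, obese 29 was above and obese 42 below every lean rat, so the groups overlapped completely. Cdkn3, a phosphatase that acts on cyclin-dependent kinases, had the widest spread, with 6.67, 6.30 and 5.98 on the lean and 7.83, 6.27 and 4.71 on the obese arrays. Obese 29 exceeded obese 42 by 3.12 for Cdkn3, an 8.72-fold difference that ranked 6 among all genes tested. Ccna2, the cyclin of S phase and early mitosis, was at 5.25, 4.43 and 3.39 on the obese arrays against 4.23 to 4.70 on the lean. Ccnb1, the other B-type cyclin, had the same order in a narrower range, at 6.14, 5.77 and 5.22 against 5.70 to 5.79. Cdkn3, Cdk1, Ccna2 and Ccnb1 were chosen for these sentences after their values were seen.

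Mki67 and Top2a, which organise and untangle mitotic chromosomes, followed the same order. Mki67, which encodes the proliferation antigen Ki-67, was at 6.79, 6.59 and 6.48 on lean 14, 18 and 19. On obese 29, 32 and 42 it was at 7.50, 6.33 and 5.19, a 4.96-fold difference between the highest and the lowest. Its SD was 0.16 in lean and 1.15 in obese rats. Top2a, the topoisomerase, lay at 5.996, 5.96 and 6.19 on the lean arrays and at 7.27, 5.998 and 5.64 on the obese. Obese 32 lay among the lean rats for Top2a and just below them for Mki67.

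The spindle and midzone genes also split the obese rats. Prc1, which bundles microtubules between the separating chromosomes, was at 6.68, 6.43 and 6.68 on the lean and at 7.70, 6.60 and 5.87 on the obese arrays. Hmmr, a spindle-associated protein, was at 4.66, 4.39 and 4.31 against 5.66, 4.68 and 3.98. Kif20a, a motor of cytokinesis chosen after its values were seen, was at 5.95, 5.53 and 5.79 against 6.81, 5.89 and 4.73. In all 6 genes of this group obese 29 was highest and obese 42 lowest. The other 3, the spindle motor Kif11, the microtubule binder Nusap1 and the kinetochore protein Cenpf, differed between obese 29 and obese 42 by 1.23, 1.53 and 1.59.

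Genes of the spindle checkpoint and the anaphase-promoting complex had the same order with smaller gaps. Ube2c, the ubiquitin-conjugating enzyme of that complex, was at 6.63, 6.38 and 6.13 on the lean and 7.13, 6.35 and 5.77 on the obese arrays. Cdc20, its activator, was at 6.84 on obese 29 and 5.59 on obese 42, with lean arrays at 5.93 to 6.28. The checkpoint kinases Bub1 and Bub1b differed by 1.15 and 0.68 between those obese rats, and for Bub1b obese 42 nearly equalled lean 19, both at 4.59.

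The mitotic kinases and the survivin gene showed the weakest split. Aurka, the kinase of spindle poles, was at 5.50, 5.20 and 5.03 on the lean and 5.51, 5.51 and 5.26 on the obese arrays, so obese 29, obese 32 and lean 14 were nearly tied at the top. Plk1, which acts throughout mitosis, lay at 5.91, 5.60 and 5.60 against 5.99, 5.69 and 5.67. Birc5, which encodes survivin of the chromosomal passenger complex, lay at 4.98, 4.58 and 5.001 against 5.29, 4.89 and 4.94. For these genes obese 42 lay inside the lean range. Aurkb, the kinase of the passenger complex, did have the wider order, at 5.56, 5.06 and 4.80 against 5.22 to 5.30 on the lean arrays. The mean level of 12 of the 21 mitosis genes lay above the array medians over all probe sets, and that of 1, Ccna2, below the lower quartile of 4.41 to 4.49.

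The obese SD exceeded the lean SD for 19 of 21 mitosis genes, with a median ratio of 3.88, against 63.2% and a median ratio of 1.32 over all genes tested. Obese 29 exceeded obese 42 by more than 1 log2 unit for 15 of 21, against 1.21% of all genes. The median of that difference was 1.53 for mitosis genes, 0.43 for S phase genes and 0.0097 for all genes. Of the 50 genes with the largest excess of obese 29 over obese 42, 11 were among the 21 mitosis genes and 0 among the 9 S phase genes. The largest excesses were those of Actg2 (3.91), Mx2 (3.76) and Tm4sf4 (3.67), which belong to neither phase. Macrophage genes had a median excess of 0.91, with 6 of 13 over 1 log2 unit and 1 of 13 among those 50. This pair of rats was set after the order of the arrays was seen, so the values restate that order. They are differences between single rats, with no replicate behind either, and carry no test.

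**Figure D2:**
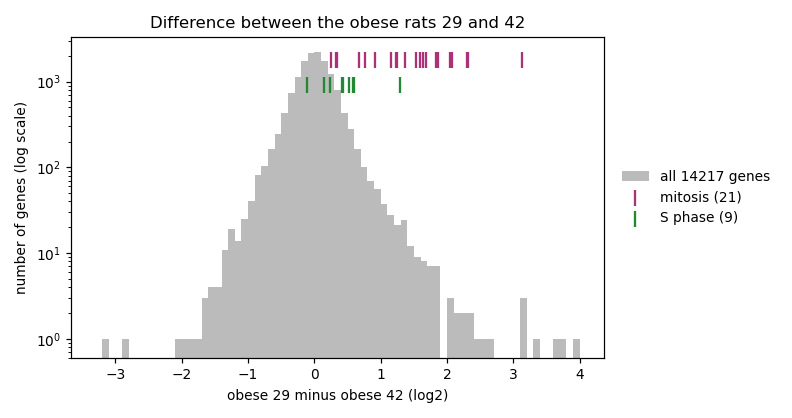
Histogram of the log2 difference between obese 29 and obese 42 over all 14217 genes (grey, log-scaled count), with ticks for the 21 mitosis genes and the 9 S phase genes. The mitosis ticks run from 0.25 to 3.12 and the S phase ticks from -0.12 to 1.30, while the grey peak is centred near 0.

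Probe sets not used for the gene level gave a check of the same transcripts. Of 11 such probe sets, which belong to 7 genes, 8 were highest on obese 29 and 5 lowest on obese 42. The second probe set of Ccnb1 was at 6.49, 5.33 and 4.73 on obese 29, 32 and 42, a wider spread than the brighter one, and its difference was 0.13 against -0.04. That of Nusap1 had obese 42 at 5.62, inside the lean values of 5.52 to 5.85, and its obese minus lean difference was 0.40 against 0.07 on the brighter probe set. None of the 4 further Cdc20 probe sets was lowest on obese 42, as the brightest was, whose difference was -0.0089. The next brightest was at 5.60, 5.30 and 5.16 on the lean and 5.89, 5.40 and 5.23 on the obese arrays, highest on obese 29 and lowest on lean 19, with a difference of 0.15. Those at 4.18 to 4.29 and at 4.56 to 4.66 on the obese arrays were highest on lean 19, with differences of 0.02 and 0.05. The last was highest on obese 29 and lowest on obese 32, with a difference of -0.04. The third Tk1 probe set was at 4.95, 5.07 and 5.11 on obese 29, 32 and 42, above the lean values of 4.79 to 4.84, with a difference of 0.24 (limma adjusted p = 0.366 over all probe sets).

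S phase genes had part of the mitosis pattern, with obese 42 low for most genes and obese 29 high for some. Of 9 measured genes 4 were highest on obese 29 (17.2% of all genes) and 5 on lean 14, while 6 were lowest on obese 42 (20.3%) and 3 on obese 32. Mcm5, Mcm6, Tyms and Tk1 were both highest on obese 29 and lowest on obese 42, against 3.97% of all genes. Obese 42 lay below every lean array for 8 of 9, against 4233 of all 14217 genes. The levels of the obese arrays descended from 29 to 32 to 42 for 6 of the 9 S phase and 20 of the 21 mitosis genes, against 17.3% of all genes. Their mean level was 6.96, 6.84 and 6.74 on lean 14, 18 and 19 and 6.94, 6.58 and 6.48 on obese 29, 32 and 42. By this mean obese 29 lay within the lean range, where for mitosis genes it lay above it. The difference between the phases was not tested.

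**Figure D3:**
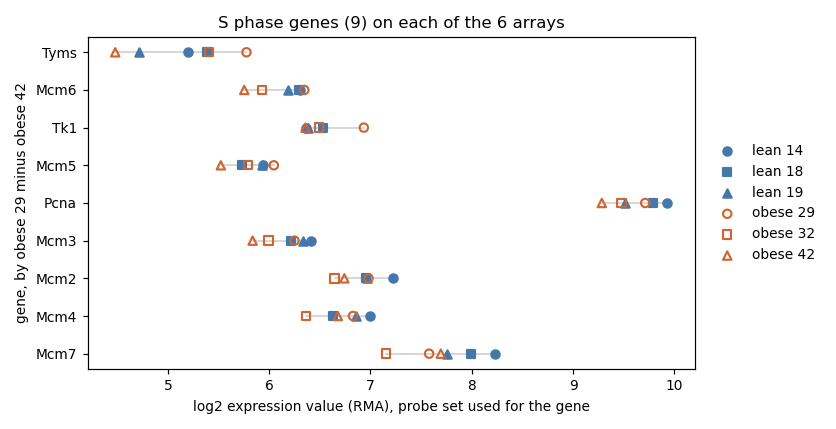
Log2 expression value of each of the 9 S phase genes (rows) on the 3 lean arrays (filled) and the 3 obese arrays (open), with a grey line from the lowest to the highest array. For Mcm7 the obese arrays, at 7.15 to 7.69, lie below the lean arrays, at 7.76 to 8.23, and in the other rows the groups overlap.

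The 6 MCM helicase genes all had a lower mean in obese rats, against 46.3% of all genes. Mcm7 was at 8.23, 7.99 and 7.76 on lean 14, 18 and 19 and at 7.58, 7.15 and 7.69 on obese 29, 32 and 42. It was the 1 member whose groups did not overlap, which in this direction held for 8.18% of all genes. Its mean was 7.99 ± 0.24 (SD, n = 3) in lean and 7.48 ± 0.28 (SD, n = 3) in obese rats. The difference of -0.52 (SE 0.17, 95% interval -0.93 to -0.11), a 1.43-fold lower level, did not pass limma's test (adjusted p = 0.306). Mcm3 was at 6.42, 6.22 and 6.33 against 6.25, 5.99 and 5.84, a difference of -0.30 (SE 0.12, limma adjusted p = 0.369). Obese 29 lay just above lean 18 for this gene, and the other obese rats below every lean rat.

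The remaining helicase subunits had smaller differences. Mcm2 was at 7.22, 6.96 and 6.97 on the lean and 6.98, 6.65 and 6.74 on the obese arrays, and Mcm6 at 6.30, 6.29 and 6.19 against 6.35, 5.93 and 5.75. Mcm4 was at 6.997, 6.63 and 6.86 against 6.83, 6.36 and 6.68. Their differences were -0.26, -0.25 and -0.21, and that of Mcm5 was -0.08. The difference of Mcm6 was -0.42 without obese 29 and -0.12 without obese 42, and that of Mcm4 was -0.12 without lean 14 and -0.08 without obese 32. For each of these genes obese 29 lay within or above the lean values. Obese 32 and obese 42 both lay below every lean array for Mcm2 and Mcm6, only obese 32 did for Mcm4, and only obese 42 for Mcm5.

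Pcna, the polymerase clamp, was at 9.93, 9.79 and 9.51 on the lean and 9.71, 9.48 and 9.28 on the obese arrays, a difference of -0.25 (SE 0.15). Both groups spread alike, with SDs of 0.21 in each. The obese arrays descended from 29 to 42 for Pcna, as they did for Mcm3, Mcm5, Mcm6 and both nucleotide genes. Tyms, thymidylate synthase, was at 5.20, 5.39 and 4.71 on the lean and 5.78, 5.40 and 4.48 on the obese arrays. Tk1, cytosolic thymidine kinase, was at 6.36, 6.53 and 6.39 against 6.93, 6.49 and 6.36. Both were higher in the mean of the obese rats, by 0.12 and 0.17, less than the SE for Tyms (0.33) and near it for Tk1 (0.15).

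Obese and lean rats were compared for all 14217 genes with limma, with p-values adjusted by the Benjamini-Hochberg method and a call at an adjusted p under 0.05. Of all genes 0.00703% were called, and 0 of the 9 S phase and 0 of the 21 mitosis genes. At an unadjusted p under 0.05, 2 S phase genes were lower (Mcm7 and Mcm3), where 6.18% of all genes were lower and 7.23% higher, and 0 mitosis genes differed. The median difference was -0.25 for S phase genes, with 2 higher and 7 lower, 0.05 for mitosis genes, with 13 higher and 8 lower, and 0.02 for all genes, of which 53.7% were higher.

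The intervals of the mitosis genes were wide. The median SE of a difference was 0.35 for mitosis genes, 0.15 for S phase genes and 0.11 over all genes. The lowest limma adjusted p among them was 0.596, for Aurka (0.18 higher, SE 0.14). Ccnb2 had a difference of -0.45 with a 95% interval of -1.67 to 0.77, and Mki67 one of -0.28 with an interval of -1.46 to 0.90. Hmmr and Top2a were higher by 0.32 and 0.25, with intervals of -0.57 to 1.20 and -0.63 to 1.14. Birc5 and Plk1 had narrower intervals, -0.18 to 0.56 and -0.23 to 0.39. The widest, that of Cdkn3, ran from -1.66 to 1.57, so similar means do not show that the groups are alike.

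**Figure D4:**
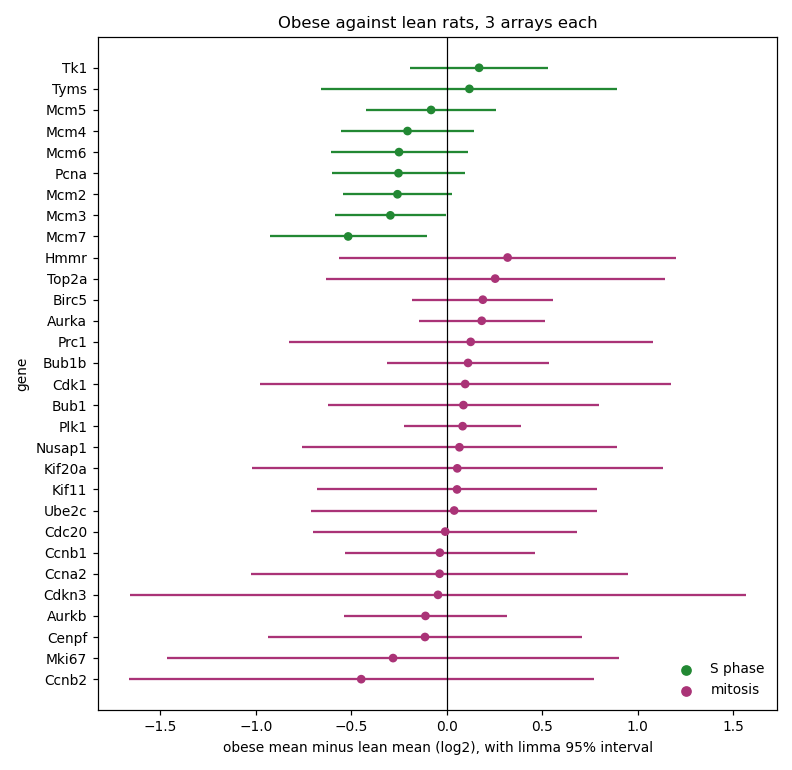
Obese mean minus lean mean in log2 units for the 30 measured genes, with limma's 95% interval as a line. The intervals of Mcm7 and Mcm3 lie below 0, those of the other genes include 0, and none passed after adjustment over 14217 genes.

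The sign of the mitosis median turned on single rats. Without obese 29 the median difference of the mitosis genes was -0.34, with 2 of 21 higher, and without obese 42 it was 0.29, with 21 of 21 higher. It was 0.15 without lean 14, -0.0065 without lean 19 and 0.03 without lean 18. Adjusted for the RNA control gap it was 0.28, with 20 of 21 higher, and with array weights 0.21. Obese 42 had both the largest RNA control gap and the lowest array weight, 0.48 against 0.90 to 1.88 on the others. For Mki67 the difference was -0.86 without obese 29 and 0.29 without obese 42. The S phase median was -0.16 without lean 14, -0.15 without obese 42 and -0.35 without obese 29. It was -0.16 adjusted for the RNA control gap. Leaving out lean 14 together with obese 42 gave -0.10 for S phase and 0.39 for mitosis genes.

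Other genes of the cycle, from 4 lists, also gave 0 calls in either direction. Of 41 other mitosis genes 33 were highest on obese 29 and 30 lowest on obese 42, and the obese SD exceeded the lean SD for 39. The median excess of obese 29 over obese 42 was 0.72 in that list. Cks2, which binds cyclin-dependent kinases, was at 7.42, 5.67 and 4.88 on obese 29, 32 and 42 against 5.82 to 6.38 on the lean arrays. Ect2, a regulator of cytokinesis, was at 6.45, 4.60 and 4.22 against 4.92 to 5.23. Both were named after their values were seen. The 4 with the smallest p, Sgo2, Ska1, Cdca2 and Sgo1, had an obese mean above the lean mean by 0.26, 0.35, 0.21 and 0.17. Sgo2 lay at 3.37 to 3.82 over all arrays and was highest on obese 42. These levels, and both group means of Ska1 and Cdca2, were below the lower quartile of 4.41 to 4.49. Without obese 29 the differences of Ska1, Cdca2 and Sgo1 were 0.16, 0.11 and 0.08. The list had 27 higher and 14 lower genes and a median of 0.06.

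Of 33 other replication genes 10 were highest on obese 29 and 17 lowest on obese 42, with 9 higher and 24 lower in obese rats and a median difference of -0.06. Cdt1, which loads the helicase, lay lower by 0.34 at 5.72, 5.45 and 5.33 on the lean and 5.43, 5.09 and 4.97 on the obese arrays. Lig1, the replicative DNA ligase, and Orc6, a subunit of the origin recognition complex, had differences of -0.21 and -0.20. Prim2, a primase subunit, had one of 0.27. Without obese 42 those of Orc6 and Prim2 were -0.09 and 0.41. None of the 33 had an unadjusted p under 0.05.

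Genes that act before replication did not share an order among the obese rats. In the list of G1 cyclins, kinases and E2F genes, 6 of 17 were highest on obese 29 and 2 lowest on obese 42. The excess of obese 29 over obese 42 had a median of 0.08 and ran from -0.60 to 0.58. Mybl2 and Foxm1, transcription factors of the mitosis genes, were above the lean arrays on every obese array. Mybl2 was at 4.47, 4.69 and 4.92 on the lean and 5.13, 5.07 and 5.02 on the obese arrays (0.38 higher, limma adjusted p = 0.299). Foxm1 was at 5.04, 4.83 and 4.95 against 5.29, 5.07 and 5.25 (0.27 higher, limma adjusted p = 0.334). With all probe sets of the gene averaged the difference was 0.26 for Mybl2 and 0.14 for Foxm1. Higher levels without overlap were found for 3 of the 17 genes of this list and 12.2% of all genes. The levels of Mybl2 and Foxm1 lay below the array medians. Ccnd1, cyclin D1, was at 9.29 to 9.31 on the lean arrays and 8.90, 8.63 and 9.36 on the obese, and its partner Cdk4 had a difference of -0.20.

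Of 20 measured inhibitors of the cycle, 9 were higher and 11 lower, with a median of -0.01. Rbl2, the p130 pocket protein of the DREAM complex, was at 8.87, 8.90 and 8.93 on the lean and 8.67, 8.68 and 8.55 on the obese arrays. Ccng2, a cyclin of quiescent cells, was lower by 0.37 and E2f5, a repressive E2F, by 0.22, and for all 3 the groups did not overlap, 3 of 20 inhibitors against 8.18% of all genes. Cdkn1c, the kinase inhibitor p57, was higher by 0.42. The limma adjusted p of these genes was 0.286 to 0.390.

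**Figure D5:**
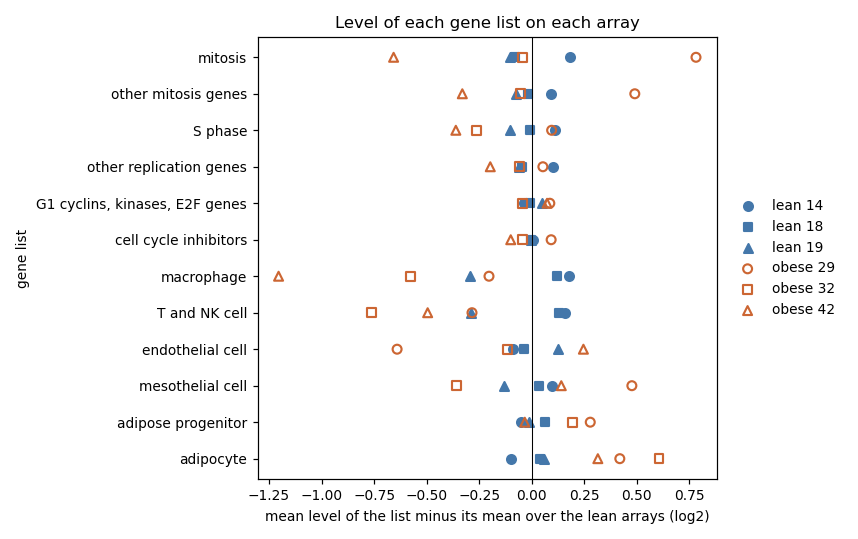
Mean log2 level of each gene list on each array, relative to its mean over the lean arrays (filled, lean; open, obese). Obese 29 and obese 42 stand at opposite ends for the mitosis genes and the other mitosis genes, while the G1 list stays within a narrow band.

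Markers of cell types that could hold the dividing cells differed between the same rats. Macrophage genes were lowest on obese 42 for 12 of 13, with a mean level of 9.80 to 10.27 on the lean arrays and 9.89, 9.52 and 8.89 on obese 29, 32 and 42. Endothelial genes were lowest on obese 29 for 9 of 9, at 8.21 there against 8.74 and 9.10 on obese 32 and 42 and 8.76 to 8.98 on the lean arrays. Mesothelial genes were highest on obese 29 for 5 of 7, at 9.76 against 8.93 and 9.43, with lean arrays at 9.15 to 9.38. Adipose progenitor genes were highest on obese 29 for 3 of 9 and on obese 32 for another 3. Their mean level was 9.03, 8.94 and 8.72 on obese 29, 32 and 42, with lean arrays at 8.70 to 8.81. The part of these cell types in the mitosis pattern was not tested.

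Lymphocyte and mast cell genes did not follow the order of the mitosis genes. T and NK cell genes lay at 5.47 to 5.92 on the lean arrays and 5.48, 4.996 and 5.26 on obese 29, 32 and 42, so that obese 32 was lowest. B cell genes were at 5.85 to 6.30 against 6.07, 5.38 and 5.61, and mast cell genes at 7.96 to 8.77 against 8.11, 7.25 and 7.39. Adipocyte genes were at 11.33 to 11.49 against 11.85, 12.03 and 11.74, and erythroid genes at 7.11 to 7.17 against 7.17, 7.56 and 7.17. Lean 14, the highest array for macrophage, mast cell and T and NK cell genes, also had the highest lean level of mitosis and S phase genes. The 3' to 5' gap of beta-actin, GAPDH and hexokinase was 0.98 on obese 29 and 1.28 on obese 42. Its group means did not differ beyond the spread (0.12 higher in obese rats, exact two-sided permutation p = 0.40, where 3 against 3 rats cannot go below 0.10), and its part in the position of obese 42 was not tested. Nor was that of the labelled re-analysis, which sets obese 42 apart from the other arrays.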

How the data were processed

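Peripancreatic fat of 6 rats was profiled, 3 lean and 3 obese, with 1 array for each. The label numbers are taken as separate rats, and p-values rest on the spread among them, handling included. The authors deposited log2 expression per probe set. They used RMA and affy, per the submitters' processing notes. Software versions and the set of arrays normalized jointly were not stated there. The number of arrays limits the precision.

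After 57 control probe sets were left out, 20826 probe sets had 1 gene symbol, 436 several and 9780 none. Each of 14217 genes was represented by its brightest probe set, with no filter on dim ones. Obese and lean arrays entered lmFit and eBayes of limma 3.58.1 (R 4.3.3; two-sided, no covariate), adjusted over all genes, and the script was tested on simulated data. Python 3.11.15 with pandas 2.3.3 made the tables and matplotlib 3.10.9 the plots. Promoters came from RefSeq.

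The members and lists were chosen with earlier results of these data known. In each phase the 6 genes with the smallest p and the 3 brightest were given array by array, and in each further list of the cycle the 4 with the smallest p were named. Further probe sets were given where their difference had the other sign or lay over 0.3 away, or after their values were seen. The list of cell type markers had 10 cell types. Alternatives were other scaling, filters, probe set rules, priors, weights, samples, a covariate and thresholds, and, chosen after seeing the data, the order of arrays under other scaling and probe set rules.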

Additional observations from a re-analysis of the deposited data

How the results depend on the processing

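The count of all genes called by limma was 1, and 0 with median centring, 2 with probe sets averaged within each gene, 3 with every probe set on its own and 9 with array weights. It was 0 with lean 14 and obese 42 both left out, 0 with the RNA control gap as a covariate, 34 at an adjusted p under 0.10 and 1907 at an unadjusted p under 0.05, and 0 to 34 with each rat left out in turn. The count of S phase or mitosis genes called stayed at 0 under all these settings except an unadjusted p under 0.05, which gave 2 S phase genes. The S phase median ran from -0.35 to -0.15 and the mitosis median from -0.34 to 0.29 with each rat left out. Of the 21 mitosis genes 19 changed the sign of their difference under at least 1 setting, and 3 of the 9 S phase genes. With only genes above 6.81, the median over genes of their brightest probe set's mean level, 0 mitosis and 3 S phase genes remained, so the mitosis result has no value there. Obese 29 stayed highest for 21 of 21 mitosis genes with median centring, quantile normalization or the mean of probe sets, and for 28 of 30 single probe sets. Obese 42 was lowest for 17, 18 and 18 of 21 and for 22 of 30. No paired analysis was possible because the labels give the groups no shared replicate numbers.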
